A study of Mus musculus with 12 samples.

Results

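The nuclear genes of the respiratory chain and of ATP synthase were examined in the newborn mouse brain after deletion of Reck in vascular cells. Members were taken by symbol alone, as every entry beginning with Nduf, Uqcr or Atp5, with Cox and a digit from 4 to 8, or named Sdha, Sdhb, Sdhc or Sdhd. This gave 92 of the 23979 entries in each of the 2 deposited tables, of which 43 were assigned to complex I, 4 to complex II, 8 to complex III, 20 to complex IV and 17 to complex V.

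Oxidative phosphorylation is carried out by protein complexes of the inner mitochondrial membrane. Complexes I and II pass electrons from NADH and succinate to ubiquinone, complex III passes them on to cytochrome c, and complex IV hands them to oxygen, while complexes I, III and IV pump protons that ATP synthase (complex V) uses to make ATP. Neurons depend heavily on this pathway, and its subunits are encoded mostly in the nucleus, with a smaller number in mitochondrial DNA. The mitochondrially encoded subunits were not analysed here.

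RNA came from cortex and subcortex of mice at postnatal day 0 on a mixed strain background, in 4 groups of 3 libraries (12 in all). The control mice were wild type (WT) and the labels give them no Cre and no altered Reck allele. The mutants, labelled Reck vascular KO and written here as vKO, were Reck flex2/Δex1 with Tie2Cre, so that they carried a Δex1 allele in addition to the Cre-dependent one, and Tie2Cre is a driver active in endothelial and blood lineages rather than in neurons or glia. The labels do not say whether the 3 libraries of a group came from separate animals, so the deposited p-values measure only the spread between those libraries.

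Each deposited table holds 1 value per gene and group in FPKM, fragments scaled by transcript length and by sequencing depth. No spread between libraries can therefore be given for any level, and the depth is unknown. Changes are given as the log2 ratio, log2((vKO FPKM + 1)/(WT FPKM + 1)), a scale that shrinks the changes of weakly expressed genes. The words rose and fell are kept for genes under 0.05 in the q-value column of the authors' deposited table. The tables were made separately for each tissue, and no test compared the response of cortex with that of subcortex.

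Several features of the whole series bear on these genes. In cortex, Reck itself had 2.91 FPKM in WT and 3.23 in vKO (q = 0.639 in the authors' deposited table) and at 2.37 and 3.49 in subcortex (q = 0.333 there), so its level in whole tissue gives no check of the vKO label. Xist, the RNA of the inactive X chromosome, had 0.0417 FPKM in the cortex of WT and 18.6 in that of vKO mice, with 0.0369 and 10.2 in subcortex, so this marker of female tissue went with genotype in both tissues. Markers of cell types were counted beside all tested entries, of which 8.15% were called higher and 11.3% lower in cortex. There 3 of 8 endothelial markers fell, with a summed level of 90.4 FPKM in WT and 60.9 in vKO. Much of that sum was Cldn5, at 46.8 and 24.6 FPKM, and 2 of the 8 had a log2 ratio above 0. Of 8 microglial markers, 6 rose (summed level near 50 in WT and 120 in vKO), as did 3 of 6 radial glia and astrocyte markers (984 and 1310), 3 of 4 markers of dividing cells (41.5 and 57.0) and 2 of 4 tested skeletal muscle markers (2.45 and 14.7). Of 3 tested erythroid markers 1 rose, Alas2, from 5.70 to 34.6 FPKM. Most of the summed erythroid level (20.3 and 685 FPKM) was Hba-a2, at 14.2 and 613 FPKM, which was not called (q = 0.643 in the authors' deposited table). Of 7 neuronal markers 1 fell (summed level 2139 and 2279). In subcortex, where 0.452% of all tested entries were called higher, 2 of 8 endothelial markers rose (summed level 71.8 and 78.3). No other marker on these lists was called there. The part of these differences in the results that follow was not tested. Since Xist went with genotype, an effect of sex cannot be told apart from one of genotype in any of them. In bulk tissue, fewer cells of a type and less RNA per cell cannot be told apart either.

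Promoter sequences are shown for 6 members whose values are described further on. Atp5k, Sdhd and Uqcr11 had the lowest q-value of their complexes in cortex. Ndufb4 had the lowest of the called complex I members with a motif match in the stretch shown. Cox7a2 and Cox7a1 are alternative forms of the same subunit. Each sequence is the stretch of 150 bases before the annotated start, 5′ to 3′ on the gene's own strand, from RefSeq on GRCm38.p6. Capitals mark matches, on either strand, to motifs of factors known to act on mitochondrial genes. These are NRF1 (GCGCANGCG, nuclear respiratory factor 1), the ETS site bound by GABP (CCGGAAGT), YY1 (AAGATGGCG) and the half-site of oestrogen-related receptors (AAGGTCA).
Atp5k: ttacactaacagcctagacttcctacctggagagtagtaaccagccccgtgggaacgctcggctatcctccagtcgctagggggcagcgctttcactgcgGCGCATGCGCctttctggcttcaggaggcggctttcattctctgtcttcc
Sdhd: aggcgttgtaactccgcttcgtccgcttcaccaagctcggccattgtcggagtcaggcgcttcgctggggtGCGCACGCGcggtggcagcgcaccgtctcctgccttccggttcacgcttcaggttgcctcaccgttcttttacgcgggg
Ndufb4: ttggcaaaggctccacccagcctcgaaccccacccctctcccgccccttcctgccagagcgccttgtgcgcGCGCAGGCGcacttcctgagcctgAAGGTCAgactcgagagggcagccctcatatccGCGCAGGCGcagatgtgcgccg
Uqcr11: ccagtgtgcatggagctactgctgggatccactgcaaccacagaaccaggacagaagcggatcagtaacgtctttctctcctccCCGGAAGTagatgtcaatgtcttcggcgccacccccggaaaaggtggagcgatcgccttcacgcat
Cox7a2: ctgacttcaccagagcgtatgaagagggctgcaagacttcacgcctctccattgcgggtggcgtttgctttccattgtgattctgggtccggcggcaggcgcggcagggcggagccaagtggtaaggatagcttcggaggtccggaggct
Cox7a1: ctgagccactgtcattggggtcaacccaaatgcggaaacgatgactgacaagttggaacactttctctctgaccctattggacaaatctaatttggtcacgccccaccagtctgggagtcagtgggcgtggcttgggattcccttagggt

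Atp5k (chr5:108434400-108434549, minus strand) has overlapping NRF1 matches on both strands, which end 40 bases before the start. Sdhd (chr9:50603850-50603999, minus strand) has 1 NRF1 match 70 bases away. Ndufb4 (chr16:37654369-37654518, minus strand) has 3 separate matches, an oestrogen-related receptor half-site between NRF1 sites, the nearest 13 bases from the start. Uqcr11 (chr10:80406822-80406971, minus strand) has the ETS site, 58 bases away. Cox7a2 (chr9:79759854-79760003, minus strand) and Cox7a1 (chr7:30184021-30184170, plus strand) hold none of these letter strings in the stretch shown.

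Of the 92 members, 76 were matched by symbol to a 300-base promoter (250 bases before to 50 after the start) in the RefSeq table. An NRF1 match lay in 22 of them, 28.9%, against 14.9% of 9949 other genes tested in cortex and 7.03% of all 27025 promoters in the table. YY1 matches were in 8 (10.5%, against 3.41% and 1.64%) and oestrogen-related receptor half-sites in 8 (10.5%, against 3.60% and 5.38%). The ETS string was in 5 (6.58%), against 8.69% of the other tested genes and 4.31% of all promoters. Among the tested members with an NRF1 match, 11 of 22 rose in vKO cortex and their median log2 ratio was 0.43. Among those without one, 20 of 52 rose and the median was 0.37. After subtracting genes of like length, as described further on, the medians were 0.033 with a match and 0.038 without. With a YY1 match 2 of 8 rose, and without one 29 of 66, with medians of 0.38 and 0.39. A match is a string of letters, and binding was not measured.

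In cortex, transcripts of all 5 complexes were higher in vKO. Of the 88 members that the authors tested, 36 rose and 0 fell, 40.9%, where 8.15% of all tested entries were called higher and 11.3% lower. The rises were small, with FPKM ratios from 1.31 to 1.69. A log2 ratio above 0 was found for 85 of the 88, and the median was 0.38, while the median of all tested entries was 0.00. A further 15 members had a q-value between 0.05 and 0.10 in the authors' deposited table. The members not tested were Cox6a2, Cox7b2, Cox8b and Cox8c, muscle or testis forms of complex IV subunits, each below 1 FPKM in both cortex groups.

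**Figure D1:**
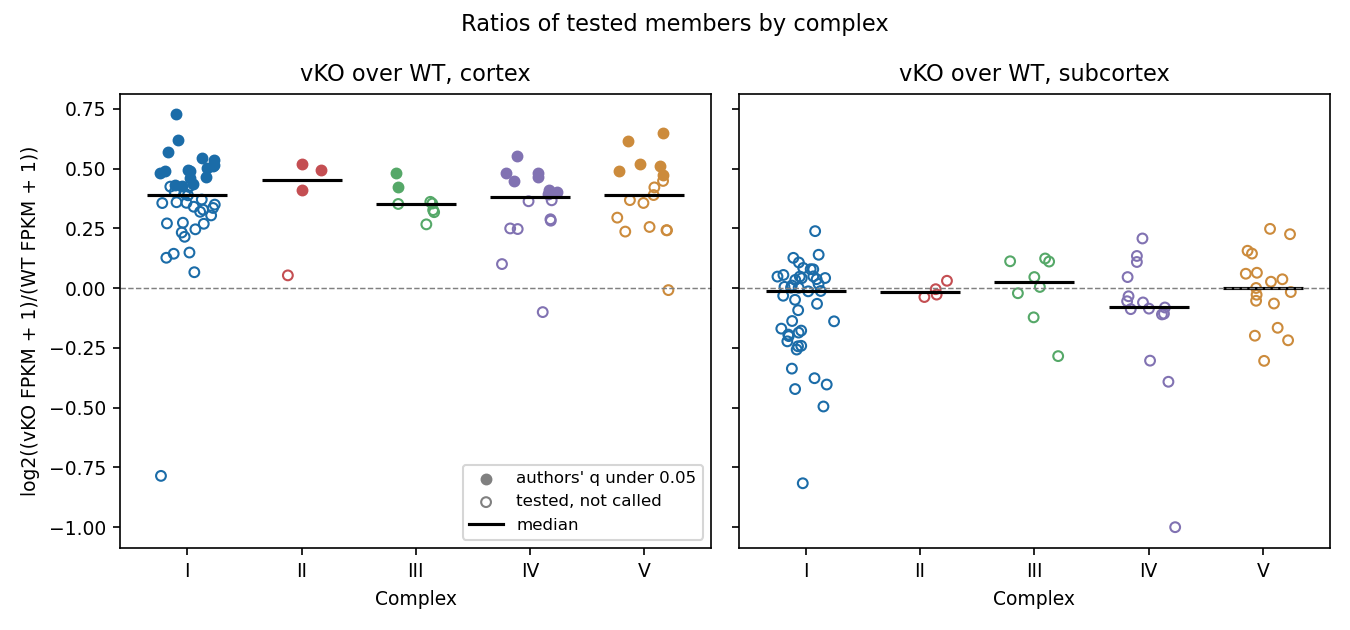
Log2 ratio of vKO over WT for each tested member (points), by complex, in cortex and subcortex, with filled points for genes under the authors' q of 0.05 and black lines for the medians. In cortex the medians of the 5 complexes lie between 0.35 and 0.45 and 36 points are filled, and in subcortex the medians lie between -0.08 and 0.03 and no point is filled.

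Complex I, the entry point for electrons from NADH, had 17 of 43 tested members called higher and a median log2 ratio of 0.39. On average 24.5% of their genes of like length, as described further on, were called higher. The calls fell largely among its accessory subunits, which surround the catalytic core: 15 of 29 rose, with a median of 0.43. They are shorter, with a median of 875 bases, against 1623 for the core subunits and 1478 for the assembly factors. After subtracting genes of like length, as described further on, the median excesses of the 3 subgroups were 0.035, 0.021 and 0.076. Ndufb8, Ndufb10 and Ndufb9, all of the membrane arm, had the lowest q-values among the accessory subunits. Ndufb8 (chromosome 19, 44550254 to 44555415, 5 exons) had 148 FPKM in WT cortex and 221 in vKO cortex, a log2 ratio of 0.57 (q = 0.00144 in the authors' deposited table). Ndufb10 went from 84.6 to 124 FPKM and Ndufb9 from 142 to 207, with log2 ratios of 0.55 and 0.54 (q = 0.00400 and 0.00445 in the authors' deposited table). Ndufb4, with the NRF1 matches in its promoter, rose from 111 to 160 FPKM. Ndufa3, the member of complex I with the highest level, rose from 175 to 242 FPKM. Ndufab1, the mitochondrial acyl carrier protein, which is also a subunit of complex I, rose from 18.2 to 28.5 FPKM, a log2 ratio of 0.62.

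Of the 7 tested core subunits of complex I, which hold its flavin and iron-sulphur centres, 1 rose. This was Ndufv2, an iron-sulphur subunit near the site of NADH oxidation, at 48.5 FPKM in WT and 69.1 in vKO (log2 ratio 0.50). The core subunits had a median log2 ratio of 0.34, and the lowest was that of Ndufs1, the large iron-sulphur subunit, at 34.5 and 36.2 FPKM (0.07). Of the 7 assembly factors, which build the complex without staying in it, Ndufaf2 alone was called. Ndufaf2 (chromosome 13, 108052589 to 108158625, 4 exons) rose from 18.7 to 31.6 FPKM, and its log2 ratio of 0.73 was the highest of all tested members (q = 0.00144 in the authors' deposited table). The other assembly factors were at 6.71 FPKM (Ndufaf6) to 20.5 FPKM (Ndufaf3) in WT, and their log2 ratios ranged from 0.13 (Ndufaf4) to 0.42 (Ndufaf6).

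The accessory subunit Ndufs5 went the other way without being called, at 26.6 FPKM in WT cortex and 15.0 in vKO cortex (log2 ratio -0.79, q = 0.445 in the authors' deposited table). Its subcortex values were 23.2 and 12.7 FPKM (log2 ratio -0.82), the second lowest ratio of a member there. Its entry shares one locus with BC002163, so the fragments of both stand under one set of coordinates, and it has a near-identical pseudogene in the GENCODE annotation. Its level is uncertain for both reasons. A near-identical pseudogene is also annotated for 9 of the 36 called members, among them Atp5k, Atp5c1, Ndufab1 and Cox7b.

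Complex II, succinate dehydrogenase, is the only complex that belongs to both the respiratory chain and the citric acid cycle, and it is wholly encoded in the nucleus. Here 3 of its 4 subunits rose, with a median log2 ratio of 0.45, beside 14.9% of genes of like length called higher. Sdhd, a membrane anchor, rose from 46.0 to 66.3 FPKM (chromosome 9, 50596340 to 50603849, 4 exons) and Sdhc, the other anchor, from 57.0 to 76.1 FPKM. The iron-sulphur subunit Sdhb rose from 86.0 to 121 FPKM, and the q-values of the 3 were 0.00492, 0.0339 and 0.00765 in the authors' deposited table. Sdha, the flavoprotein that oxidises succinate, was at 53.4 and 55.5 FPKM, a log2 ratio of 0.05 (q = 0.851 there). In the annotation the longest coding transcripts have 1231 bases for Sdhd, 1142 for Sdhb, 3171 for Sdhc and 2900 for Sdha. The median over the coding transcripts of a gene is 815 for Sdhc and 1811 for Sdha.

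Complex III, the cytochrome bc1 complex, had 2 of 8 members called, beside 27.1% of genes of like length called higher. All 8 had a log2 ratio between 0.27 and 0.48. Uqcr11, one of its smallest subunits, rose from 196 to 274 FPKM and Uqcrq, a small subunit near the ubiquinone site, from 127 to 171 FPKM (q = 0.0162 and 0.0412 in the authors' deposited table). Uqcrh, the hinge protein, had the highest level in WT cortex, at 227 FPKM, and stood at 285 in vKO (log2 ratio 0.33). Uqcrfs1, the Rieske iron-sulphur protein, had the lowest level, at 61.8 and 79.1 FPKM (0.35). The median of 0.35 thus came with fewer calls than in the other complexes, and 3 members had a q-value between 0.05 and 0.10.

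Complex IV, cytochrome c oxidase, had 8 of 16 tested members called and a median log2 ratio of 0.38. Genes of like length had 34.25% called higher and a median of 0.41, and 11 of the 16 members lay below them. Cox6b1, a subunit on the intermembrane face, had the lowest q-value of the complex and rose from 316 to 464 FPKM (log2 ratio 0.55, q = 0.00144 in the authors' deposited table). Cox6c rose from 276 to 385 FPKM, and Cox4i1, a subunit tied to the control of the enzyme by ATP, from 428 to 597 FPKM (q = 0.0107 and 0.0135 there). Cox7b, which lies on the X chromosome, rose from 85.3 to 117 FPKM. The 2 other X-linked members, Ndufa1 at 70.4 and 92.5 FPKM and Ndufb11 at 70.3 and 93.3 FPKM, both of complex I, were not called. Ndufa4, named as a complex I gene but found in complex IV, rose from 298 to 394 FPKM. Cox7a2l, a factor that joins complexes III and IV into supercomplexes, was at 122 and 145 FPKM (log2 ratio 0.25) and was not called.

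Several complex IV subunits have a widely used form and an alternative from another gene, expressed mainly in muscle, lung or testis. In cortex 5 of the widely used forms rose, Cox4i1, Cox6b1, Cox7a2, Cox7b and Cox8a, and so did Ndufa4. Cox7a2 went from 146 to 194 FPKM and Cox8a from 242 to 318 FPKM, while Cox6a1, at 303 and 390 FPKM (log2 ratio 0.36), was not called. The alternative forms were far lower. Cox4i2 had 1.20 FPKM in WT and 1.69 in vKO, Cox6b2 at 2.47 and 2.72, Cox7a1 at 5.09 and 4.68, and Ndufa4l2 at 2.90 and 3.64, and none was called. Cox6a2 was at 0.482 and 0.733 FPKM, Cox7b2 at 0.0704 and listed at 0, Cox8b at 0.164 and listed at 0, and Cox8c listed at 0 and at 0.0789, all untested. Cox4i2 made up 0.280% of the summed FPKM of its pair in WT and 0.282% in vKO cortex, and Cox6b2 0.773% and 0.582%.

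**Figure D2:**
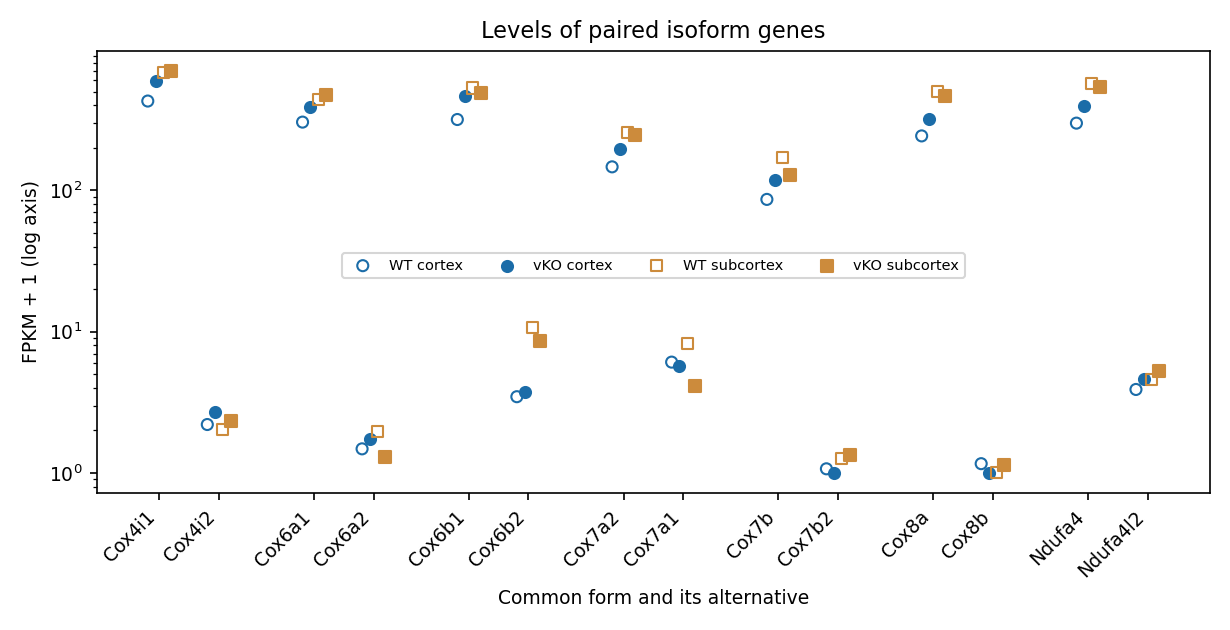
FPKM + 1 (log axis) of paired isoform genes in the 4 groups, 1 value per group, with the widely used form on the left of each pair. Every alternative form lies below 10 FPKM in all 4 groups, the highest being Cox6b2 in WT subcortex at 9.64.

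ATP synthase had 6 of 17 members called, beside 23.8% of genes of like length called higher, and a median log2 ratio of 0.39. The calls covered the 3 membrane subunits of the dimer interface, where neighbouring synthases join and bend the inner membrane: Atp5k (subunit e), Atp5j2 (f) and Atp5l (g). Atp5k (chromosome 5, 108433253 to 108434378, 4 exons) was the most abundant member in WT cortex and had the lowest q-value of all members. It rose from 455 to 698 FPKM, a log2 ratio of 0.62 (q = 0.000806 in the authors' deposited table), and at 371 bases it was also the shortest transcript among the tested members. Atp5j2 rose from 245 to 349 FPKM and Atp5l from 37.8 to 52.9, although Atp5l has 8 near-identical pseudogenes with which its reads can be shared.

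Of the 5 subunits of the catalytic F1 part, 1 rose. Atp5c1, the gamma subunit that turns inside it, went from 148 to 213 FPKM (log2 ratio 0.52, q = 0.00353 in the authors' deposited table), while the catalytic beta subunit Atp5b was at 429 and 507 FPKM (0.24) and the alpha subunit Atp5a1 at 246 and 315 (0.36). In the peripheral stalk, which holds F1 still, 1 of 4 rose, Atp5o from 197 to 277 FPKM. The membrane ring is built from copies of 1 mature protein, subunit c, made from 3 genes. Atp5g2 rose from 124 to 195 FPKM (log2 ratio 0.65, q = 0.00144 there), Atp5g3 was at 204 and 241 (0.24) and Atp5g1 at 70.5 and 70.0 (-0.01), neither called. Atp5s, which matched by its symbol and is no subunit of the enzyme, had the lowest level, at 3.79 and 5.53 FPKM.

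**Figure D3:**
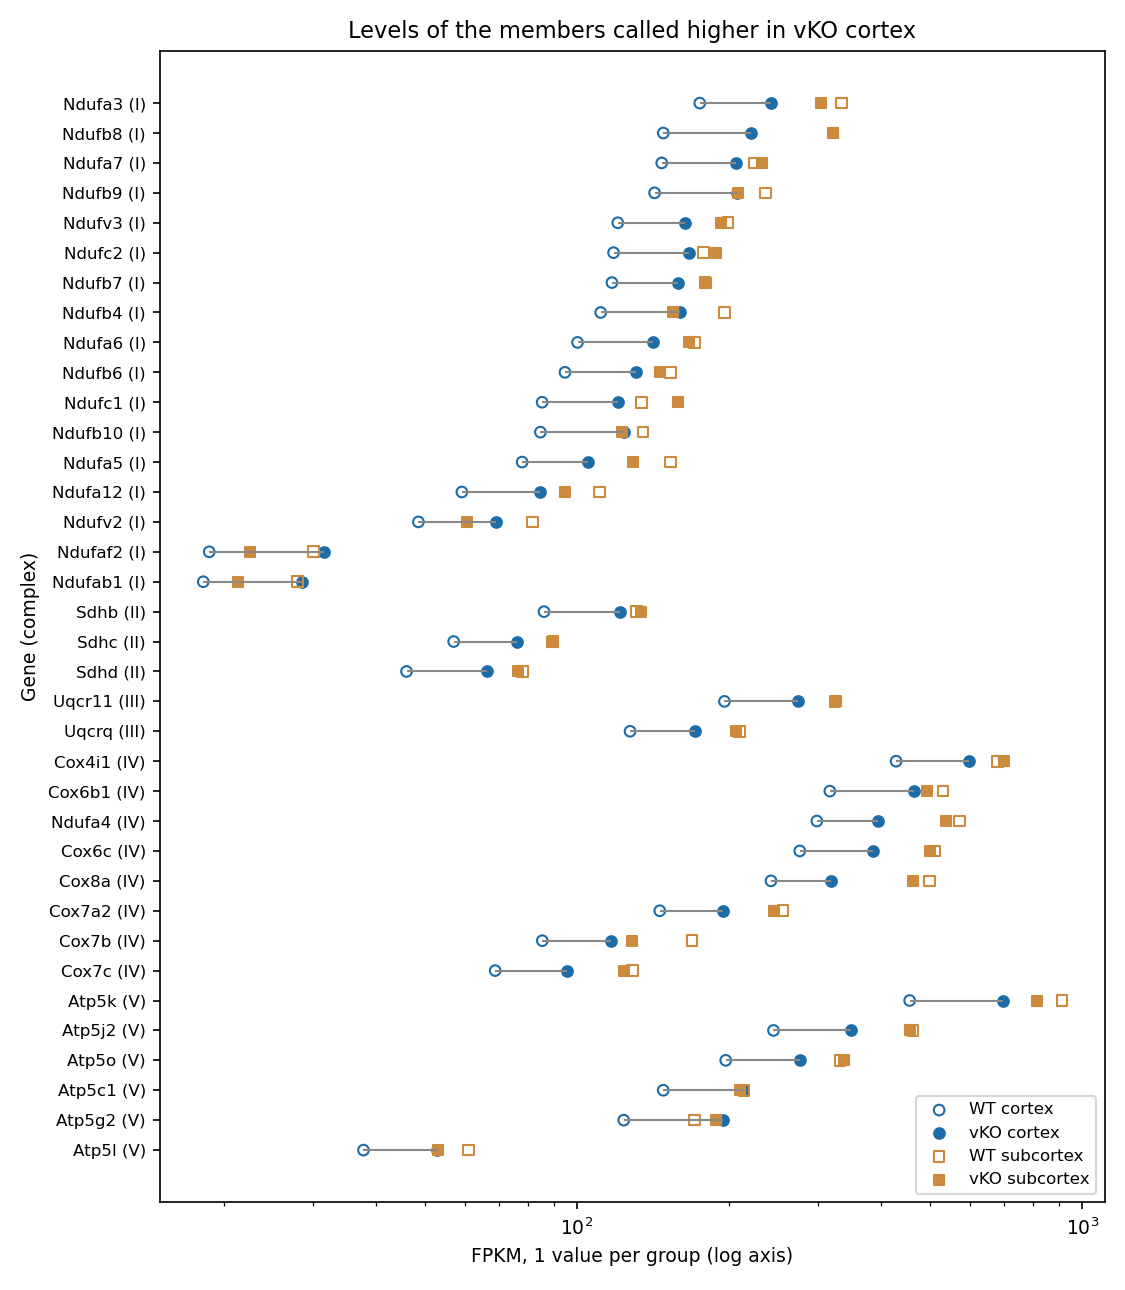
FPKM (log axis) of the 36 members called higher in vKO cortex, by complex, with circles for cortex and squares for subcortex, open for WT and filled for vKO, 1 value per group. The cortex lines run from left (WT) to right (vKO) for every gene shown, as the call fixes, while the filled squares lie on either side of the open ones.

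In subcortex no member was called. Of 87 tested members, 0 passed the authors' q-value (Cuffdiff), where 0.452% of all tested entries were called higher and 0.262% lower (0.714% in all). At an unadjusted p under 0.05 there were 6 members, a share near that of all entries with both directions counted (867 of 13732). All 6 had a ratio below 0, whereas 388 of the 867 entries were lower. The untested ones were those of cortex and Cox4i2. The median log2 ratio was -0.02, with 39 of 87 members above 0, against 0.00 for all tested entries. By complex the medians were -0.01 (I), -0.02 (II), 0.03 (III), -0.08 (IV) and 0.00 (V).

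The most abundant members of each complex lay close together in the 2 genotypes. Ndufa3 had 334 FPKM in WT and 303 in vKO subcortex and Ndufb8 at 321 and 321. Sdhb was at 131 and 134 FPKM, and Sdhc at 89.7 and 89.4. Uqcrh was at 355 and 326 FPKM and Uqcr11 at 324 and 325. Cox4i1 was at 678 and 700 FPKM, Ndufa4 at 571 and 538, Atp5k at 911 and 812, and Atp5b at 539 and 553. Their log2 ratios lay between -0.17 (Atp5k) and 0.05 (Cox4i1).

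The 6 members with an unadjusted p under 0.05 in subcortex were Cox7a1, Cox7b, Ndufab1, Ndufaf2, Ndufaf4 and Ndufv2. Cox7a1, the heart and muscle form of subunit 7a, was at 7.29 and 3.15 FPKM and had the lowest ratio of all members (q = 0.626 in the authors' deposited table). Ndufaf4, an assembly factor of complex I, was at 11.3 and 7.70 FPKM (-0.50, q = 0.168 there). Ndufv2 was at 81.6 and 60.6 FPKM (-0.42), Ndufaf2 at 30.1 and 22.5 (-0.40), Cox7b at 169 and 128 (-0.39), and Ndufab1 at 27.9 and 21.3 (-0.38). Of these, Ndufv2, Ndufaf2, Cox7b and Ndufab1 had risen in cortex. In all, 26 of the 36 members called higher in cortex had a ratio below 0 in subcortex, beside 48 of all 87 tested members, and whether the tissues differed in their response was not tested.

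The levels themselves differed between the tissues, on values that the authors normalized separately for each. In WT mice 86 of 87 members tested in both tissues were higher in subcortex than in cortex, with a median log2 ratio of 0.61, against 0.05 for all 13167 entries tested in both and 0.34 for genes of like length. Ndufb8, for example, was at 148 FPKM in WT cortex and 321 in WT subcortex, and Cox6b1 at 316 and 529. For vKO cortex over WT subcortex the members had a median log2 ratio of -0.24, with 8 of 87 above 0. That median was -0.03 for all entries and -0.0022 for genes of like length. The level rose in the order WT cortex, vKO cortex, WT subcortex for 76 of the 87 members. The members made up 2.23% of the summed FPKM in WT cortex, 2.55% in vKO cortex, 3.16% in WT subcortex and 3.31% in vKO subcortex. These are differences between tables with no test.

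Most members are short transcripts, with a median length of 944.5 bases (longest protein-coding transcript in GENCODE M21) against 3179 for all tested genes. In cortex the log2 ratio fell with length over all genes: Spearman's rho was -0.55 over 13445 tested genes, which is across genes of the same libraries and not across samples. Within the tested members rho was -0.23, and in subcortex it was 0.02 over all tested genes. Members under 1000 bases had 24 of 47 tested called higher in cortex and a median log2 ratio of 0.40, and longer ones 12 of 41 and 0.35.

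Each member was therefore set beside the 200 other tested genes nearest to it in length. On average 25.9% of these were called higher in cortex, and the median over members of their median log2 ratio was 0.35. After that value was subtracted, the members had a median excess of 0.04, with 55 of 88 above 0. Between 673 and 1586 bases, the quartiles of the members, 19 of 44 members (43.2%) rose, with a median log2 ratio of 0.40, against 23.8% of 1830 other tested genes, with a median of 0.31. Where the nearest genes were also matched on WT level, 38.3% of them were called higher and the excess was 0.00.

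The size of the excess depended on which transcript stood for a gene. With the median length over a gene's coding transcripts (all transcripts where none is coding) it was 0.21, with 17.7% of the matched genes called higher. With transcripts matched to RefSeq, a choice made after the data were seen, it was -0.01 and 31.6%. The trend over all genes was weakest with the median length (rho -0.43) and strongest with the RefSeq-matched length (-0.59).

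**Figure D4:**
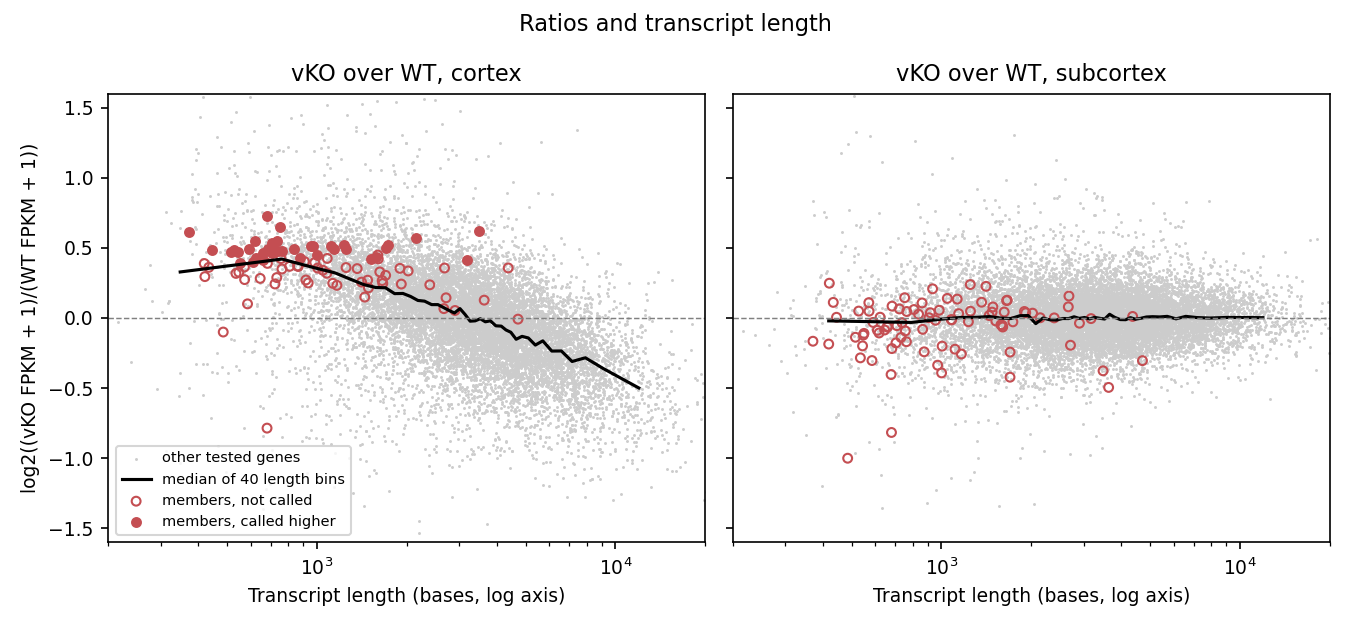
Log2 ratio of vKO over WT against transcript length in bases (log axis) for other tested genes (grey), members (red, filled where called higher) and the running median of the other genes (black), in cortex and subcortex. In cortex the running median falls with length and most members lie near it, with a median excess of 0.04, and in subcortex it is flat.

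Against genes of like length, the median excess was 0.20 for the 4 members of complex II, 0.11 for complex V, 0.04 for complex I, 0.02 for complex III and -0.06 for complex IV. Individual excesses were highest for Ndufab1 (0.62), Ndufb2 (0.43), Ndufb8 (0.43) and Sdhc (0.41), though Ndufb2, at 85.8 and 110 FPKM, was not called. The longest coding transcripts of these genes have 3479, 4371, 2142 and 3171 bases. Their median transcript lengths are 984, 2413, 549.5 and 815, and the RefSeq-matched length of Ndufb2 is 455. Excesses of single genes are given here with the longest transcript only. The lowest were those of Ndufs5 (-1.20), Cox7a1 (-0.59) and Cox6b2 (-0.36). Atp5k, with the lowest q-value, had an excess of 0.13, and Ndufaf2, with the highest ratio, 0.31.

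Calls also went with level. Of the 35 members at 100 FPKM or more in WT cortex 22 rose, of the 43 at 10 to 100 FPKM 14 rose, and of the 10 tested members under 10 FPKM 0 rose, though 2 of these had an unadjusted p under 0.05 in the authors' deposited table (Cuffdiff). Their median log2 ratios were 0.43, 0.36 and 0.24. The counts alone do not show that low members changed less.

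Other sets of large protein complexes, taken by symbol, also had more genes called higher than lower in cortex. There 8.15% of all tested entries were called higher and 11.3% lower. Of 87 tested cytosolic ribosomal protein genes 67 rose (77.0%, median log2 ratio 0.55). Of 77 mitochondrial ribosomal protein genes 22 did (28.6%, 0.36), and of 47 proteasome genes 18 (38.3%, 0.35), with 1 lower. These sets too are short, with median lengths of 887, 1316 and 1440 bases against 3179 for all tested genes. Their shares among genes of like length were not computed. No test compared these sets with the respiratory chain. In subcortex 0 of each set was called higher, and 2, 1 and 0 were called lower. There 0.452% of all tested entries were called higher and 0.262% lower.

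**Figure D5:**
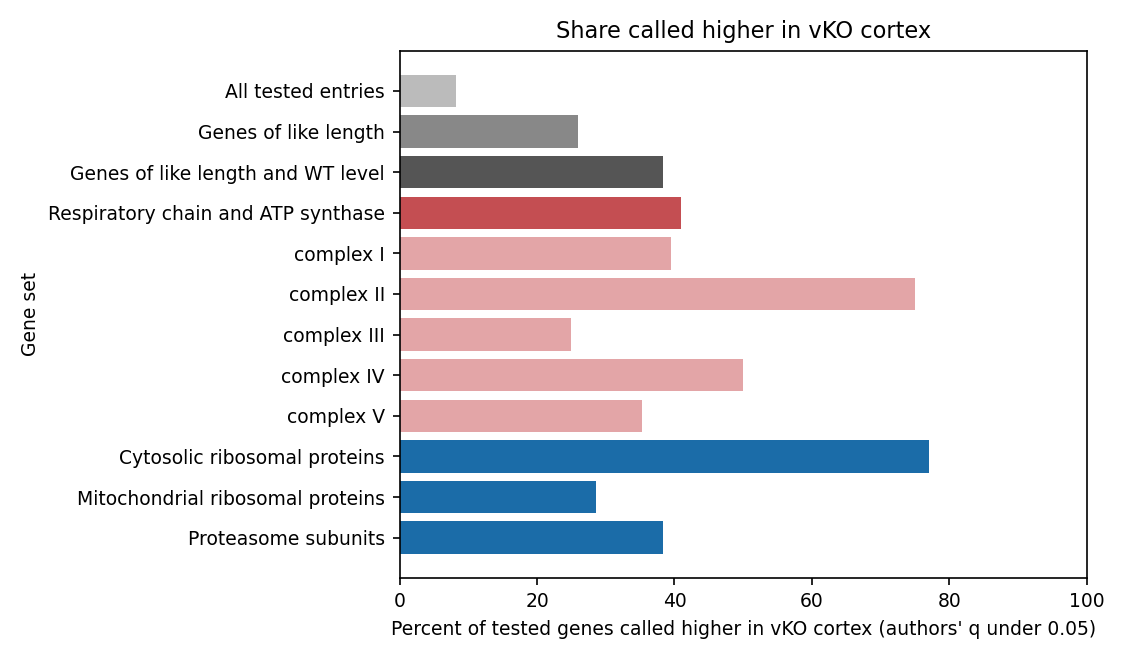
Percent of tested genes called higher in vKO cortex (authors' q under 0.05) for all tested entries, for genes matched to the members in length or in length and WT level, for the members and their complexes, and for other sets. The members stand at 40.9%, all entries at 8.15%, genes of like length at 25.9% and genes of like length and level at 38.3%.

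Genes around the respiratory chain showed a mixed pattern in cortex, where 8.15% of all tested entries were called higher. Shares among genes of like length were not computed for these lists. Of 5 subunits and carriers that the symbols missed, 3 rose, with a median log2 ratio of 0.46. These were Cycs, the soluble electron carrier cytochrome c, from 16.1 to 27.1 FPKM (log2 ratio 0.72, q = 0.000806 in the authors' deposited table), Atpif1, the inhibitor of ATP synthase, from 417 to 574, and Usmg5, a small subunit of ATP synthase, from 295 to 428. Of 38 tested assembly factors outside the symbol rule 5 rose (13.2%), and the median over the list was 0.21. The lowest q-values were those of Cox14, from 30.0 to 44.7 FPKM, Sdhaf1, from 11.0 to 17.0, and the copper chaperone Cox17, from 24.7 to 39.6. Of 18 mitochondrial carriers, import proteins and chaperones 4 rose (22.2%, median 0.29). Among them were the ATP/ADP carrier Slc25a5, from 124 to 172 FPKM, the import subunit Timm23, from 14.4 to 21.9, and the co-chaperone Hspe1, from 92.2 to 128.

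Enzymes of the citric acid cycle and regulators of mitochondrial biogenesis were also counted in cortex. There 8.15% of all tested entries were called higher and 11.3% lower, shares at which lists this short hold few calls. Of 13 tested cycle enzymes 0 passed the authors' q-value (Cuffdiff), with a median log2 ratio of 0.19. Of these, 4 had an unadjusted p under 0.05 in the authors' deposited table, 3 of them higher and 1 lower. Mdh2, malate dehydrogenase, was at 108 and 123 FPKM. Of 16 tested regulators of mitochondrial biogenesis 0 rose and 2 fell (12.5%, near the share of all tested entries), with a median of -0.04. The fallen ones were Pprc1, a PGC-1-related coactivator, from 6.76 to 2.94 FPKM (log2 ratio -0.98), and Tfb2m, a mitochondrial transcription factor, from 10.6 to 5.51 (-0.83), both at q = 0.000806 in the authors' deposited table. These lists hold longer transcripts than the members, with medians of 2580 bases for the cycle enzymes and 3954 for the regulators. In subcortex no gene of these 5 lists was called, and Cycs was at 42.0 and 28.3 FPKM (log2 ratio -0.55, q = 0.0660 there).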

How the data were processed

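Total RNA of cortex and subcortex was sequenced in 12 libraries. Cuffdiff, Cufflinks 2.2.1, HISAT2 2.0.1 and mm10 are listed in the submitters' processing notes. For the gene annotation the sources used here give nothing. The deposited tables, 1 per tissue, hold FPKM values that the authors computed, 1 per group, per the file headers. Each p-value and q-value is the authors' deposited one, and no test was added. Group letters W and M were read as WT and vKO. No depth is given. The log2 column held error text and was recomputed from FPKM with a pseudocount of 1. Repeated date symbols (4 entries) were left out.

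Lengths came from GENCODE M21, all 92 members matching, with Python 3.11.15, pandas 2.3.3 and numpy 2.4.6. Like-length medians used the 200 nearest non-members, and the step was tested on simulated data. Pseudogenes were near-identical at 95% over 200 bases or more (BLAST 2.17.0). Promoters came from RefSeq.

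Members and lists were chosen with earlier results of these data known. Named were, per complex, the 4 called members of lowest q, the highest and lowest in WT, isoform pairs and untested members, and per other list up to 3 called or otherwise the 2 highest. Alternatives covered thresholds, pseudocount, scaling, length and exclusions. Other genes named in the text were chosen after their values were seen. A gene that this rule names is not reported here.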

Additional observations from a re-analysis of the deposited data

How the results depend on the processing

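No paired analysis was possible because each table holds 1 value per group, and leaving out a library in turn could not be run for the same reason. Of the 36 members called higher in cortex, 14 remained at a q-value under 0.01, 4 with a rise of at least 1.5-fold in FPKM, and 1 with at least 1.5-fold after subtracting genes of like length. The cortex median of 0.38 was 0.39 with a pseudocount of 0.1, with none, or over subunits only. It was 0.37 with untested members included or scaled to the same upper quartile. Scaled to the same summed FPKM it was 0.17, where the median of all tested entries shifted by -0.20, all 36 called members stayed above 0, and 79 of 88 tested ones did. Exclusions added after seeing the data gave 0.41 without shared loci and 0.36 without near-identical pseudogenes. The cortex excess over like length, 0.04, was 0.034 with the 100 nearest genes, 0.025 with a pseudocount of 0.1, 0.067 with GC content added, 0.0043 with WT level added and 0.21 with median transcript length. Settings added after seeing the data gave -0.0061 (RefSeq-matched transcripts), 0.054 (median length and WT level) and -0.032 (RefSeq-matched transcripts and WT level). The subcortex median of -0.02 was -0.015 with untested members included, -0.0071 at the same upper quartile, 0.080 at the same summed FPKM, -0.036 without shared loci and 0.0011 without pseudogenes. The subcortex excess of -0.01 was -0.0010 with WT level added, -0.021 with RefSeq-matched transcripts and 0.012 with median length and WT level. The cause of these shifts was not tested. No called member turned below 0 with a pseudocount of 0.1 or under either scaling, but 5 of the 36 lay below genes of like length, by 0.073 or less (Cox8a, Ndufa4, Ndufa3, Cox7a2 and Uqcr11). Unknown depth and 1 value per group limit every level given.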

Other observations

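Calls among the respiratory chain genes went with whether an entry had a locus of its own in the authors' deposited table. Of 92 members, 15 carry the coordinates of a locus that they share with another entry. Of the 14 of these tested in cortex, 0 passed the authors' q-value (Cuffdiff), and 4 had an unadjusted p under 0.05. Of the 74 tested members with a locus of their own, 36 rose. Their median log2 ratios were 0.31 and 0.41. The members of shared loci were also longer (median 1117 against 896.5 bases) and lower in WT cortex (median 64.1 against 85.3 FPKM). After subtracting genes of like length, the median excesses were 0.013 for shared loci and 0.041 for the others. Among the other entries 4.09% of 3157 that share a locus were called higher, against 9.10% of 10346 that do not. This pattern was noticed in the data, and no test was run on it.

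The pattern was plain in Atp5d and Ndufs7, which lie within 1 shared locus of 48 entries on chromosome 10. Ndufs7, a core iron-sulphur subunit of complex I, had 51.0 FPKM in WT cortex and 67.4 in vKO cortex, a log2 ratio of 0.40 (q = 0.932 in the authors' deposited table). Ndufa5, an accessory subunit with a locus of its own, was at 77.8 and 105 FPKM, a log2 ratio of 0.43 (q = 0.0434 there). Atp5d, the delta subunit of ATP synthase, was at 104 and 124 FPKM (log2 ratio 0.26, q = 0.922 there). Atp5j, a peripheral stalk subunit, shares its locus with Gabpa, which encodes the DNA-binding subunit of GABP, and was at 92.5 and 120 FPKM (log2 ratio 0.37, q = 0.230 there).

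Of 19 members with a near-identical pseudogene in the annotation, 9 rose in cortex (47.4%, beside 40.9% of all tested members), with a median log2 ratio of 0.42. In subcortex 15 of the 19 had a ratio below 0, with a median of -0.17, beside -0.02 for all tested members and 0.00 without these genes.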
